A study of Rattus norvegicus with 24 samples.

Results

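The liver transcript profile of rats on a cholesterol diet was described from the 8 arrays of the Ch group alone, with no contrast between diets. These were male Wistar rats that ate a semi-synthetic diet with 1% cholesterol for 42 days. The other 16 rats of the study ate the same cholesterol diet with 5% freeze-dried kiwifruit, cultivar Geneva (ChGENE) or Hayward (ChHAYW), and the series holds no liver of a rat without added cholesterol. Each rat had its own 1-colour Agilent array of 60-base probes, and liver tissue was used whole after cold storage overnight and freezing, so all cell types of the organ contributed RNA. A probe was included where the scanner software marked it as well above background on all 8 Ch arrays. This held for 14106 of the 30367 probes that are not controls, and these covered 9966 of the 20020 genes with a symbol. Genes were ordered by the mean log2 signal of their brightest probe over the 8 rats, after each array was scaled to its 75th percentile. A level of 0 therefore equals the 75th percentile of an array, and each unit above it is a doubling of signal.

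Hepatocytes make up most of the mass of the liver. They secrete most of the proteins of blood plasma, assemble lipoproteins, clear ammonia, make bile acids and convert drugs and other foreign compounds. In male rats they also make alpha-2u globulins, small lipid carriers that are filtered into the urine.

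The arrays differed in signal. The 75th percentile of the intensities ranged from 188 in Ch 4 to 653 in Ch 5, with 15088 probes above background in Ch 4 and 16557 to 18906 in the other 7 rats. No spot was saturated, and the highest probe intensity of an array lay between 305324 and 393143. Pearson's r between 2 rats over all probes ranged from 0.954 to 0.992 in the 28 pairs. Ch 4 was the dimmest array. Without it, 15149 probes and 10693 genes were above background on all the other arrays. The 8 Ch arrays were on 1 slide and in 1 scan, as were those of each other diet, so slide and diet cannot be told apart where diets are set side by side.

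Genes of secreted plasma proteins were the largest group among the 100 brightest. The 6 lists of this group were plasma carriers and protease inhibitors, acute phase proteins, apolipoproteins, coagulation, complement and alpha-2u globulins. The alpha-2u globulins, which are filtered into the urine, entered it with Obp3 (rank 4), Mup4l4 (rank 29) and Mup5 (rank 40). Of the 10 brightest genes 7 were on these lists, as were 20 of the 30 brightest, 38 of the 100 brightest and 71 of the 500 brightest. Genes of metabolic enzymes (15 lists together, oxidative phosphorylation and iron storage among them) held 26 places among the 100 brightest. The lists of ribosomal proteins and translation factors together held 17. Of the remaining 19 genes, 17 were on no list, and the others were Agt, the precursor of the angiotensins, and Hba-a1, a haemoglobin chain. Without Ch 4, 96 of the 100 genes remained among the 100 brightest, with 38 plasma protein genes, 26 of metabolic enzymes and 15 of translation. As a background to these counts, 1.00% of the 9966 genes are by definition among the 100 brightest, against 32.5% of the 117 plasma protein genes above background and 6.22% of the 418 genes of metabolic enzymes, and 17 of the 113 translation genes were among them. These are shares of genes on lists chosen for liver, and no test was made on them.

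The order is one of signal on the array. The signal of a probe depends on its sequence and on where it lies in the transcript as well as on the amount of RNA, so a rank is not a number of transcripts. How far apart different probes of the same gene can lie is given further on.

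**Figure D1:**
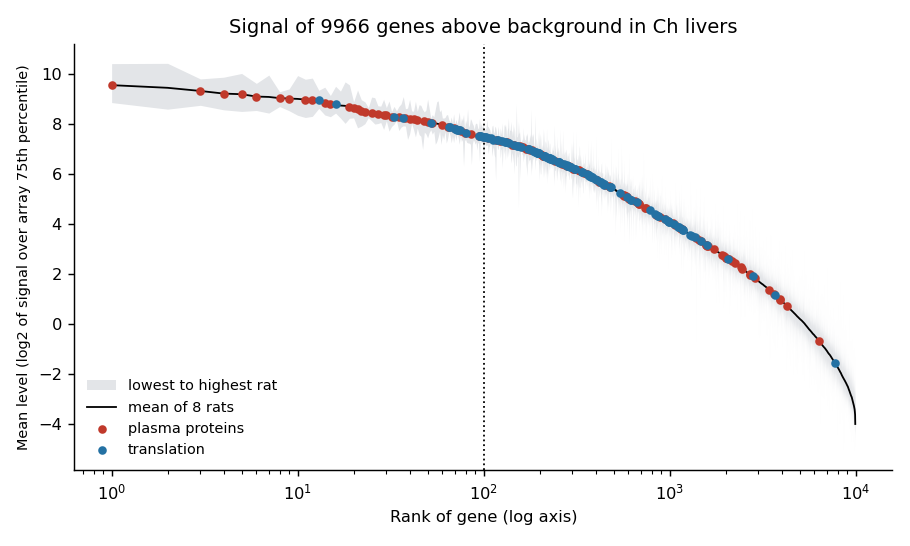
Mean level of each of the 9966 genes above background (y axis, log2 of signal over the 75th percentile of the array) against its rank (x axis, log scale). The black line is the mean of 8 Ch rats, the grey band runs from the lowest to the highest rat, red and blue points mark genes of the plasma protein and translation lists, and the dotted line marks rank 100, at a level of 7.50.

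The signal was concentrated in few genes. The 10 brightest genes held 5.95% ± 1.25 (SD, n = 8) of the summed signal of all 9966 genes, the 100 brightest held 30.6% ± 2.56 and the 500 brightest held 65.4% ± 1.99. The share of the 100 brightest ranged from 26.5% in Ch 3 to 34.6% in Ch 4. Levels ran from -4.01 to 9.57, with a median of 0.22, and fell to 7.50 at rank 100, 5.41 at rank 500 and 4.09 at rank 1000.

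Hp, which encodes haptoglobin, the plasma carrier of free haemoglobin, was the brightest gene. Its level was 8.87 in the lowest rat, 9.59 at the median and 10.43 in the highest, which is a mean of 9.57 ± 0.47 (SD, n = 8) or 760 times the 75th percentile. Hp was the brightest gene in 6 of 8 rats, and Rn18s, the 18S ribosomal RNA, was the brightest in Ch 4 and Ch 7. Apoe, an apolipoprotein that binds lipoprotein receptors, followed at 9.34 ± 0.33, with 8.76 in the lowest rat, 9.35 at the median and 9.82 in the highest. Hp was above Apoe in every rat. On the rn4 build, the probe of Hp lies at chr19:39443156-39443215 and that of Apoe at chr1:79003795-79003854, both on the minus strand. An annotation of exons for that build was not used here.

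The order of close neighbours was not stable. Of the 30 pairs of successive genes among the 31 brightest, 0 kept the same order in all 8 rats, and in 0 pairs did the mean difference exceed its SD over rats. The median difference between neighbours was 0.03, and the largest was 0.13, between Rn18s and Apoe. At the other edge, Serpina3c at rank 100 had a level of 7.50 ± 0.47 and Ugt1a6 at rank 101 had 7.49 ± 0.17. The 5 genes just outside that edge (Ugt1a6, Rps3a, Rps29, LOC100911847 and Rpl26) lay between 7.47 and 7.49.

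**Figure D2:**
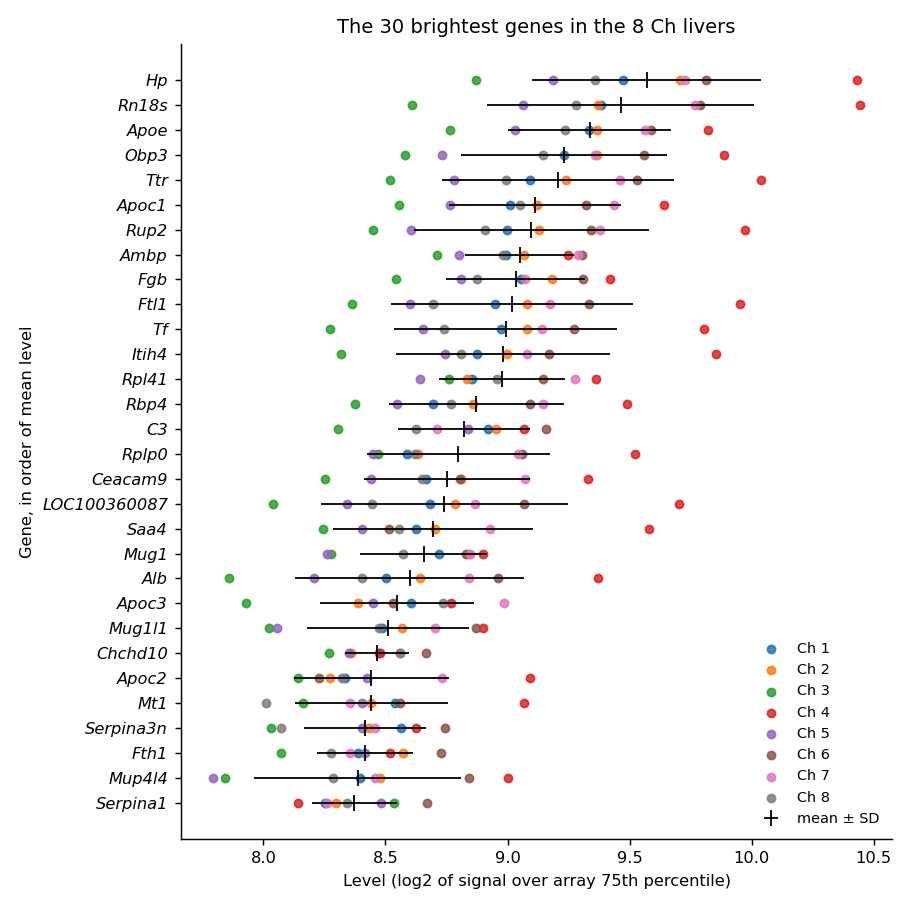
Level of the 30 brightest genes (rows, in order of mean level) in each of the 8 Ch rats (coloured points), with the mean and SD in black, on a log2 axis of signal over the 75th percentile of the array. Ch 3 is the lowest or next to lowest rat for most of these genes and Ch 4 the highest for many, and the ranges of neighbouring genes overlap throughout.

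Plasma carriers and protease inhibitors were the list with the most genes among the 100 brightest, 17 of 39 above background. The probes of Mug1 and Mug1l1, both counted, shared a run of 40 bases, so their signals cannot be assigned to single genes. Ttr, which carries thyroid hormone and the retinol-binding protein, had a level of 9.21 ± 0.47. Ambp, the precursor of alpha-1-microglobulin and bikunin, stood at 9.05 ± 0.22, Tf, the iron carrier transferrin, at 8.99 ± 0.46, and Itih4, an inter-alpha-trypsin inhibitor heavy chain, at 8.98 ± 0.44. Alb, which encodes albumin, the main protein of plasma, ranked 21. Its level was 7.86 in the lowest rat (Ch 3), 8.57 at the median and 9.37 in the highest (Ch 4), with a mean of 8.60 ± 0.47. The dimmest gene of the list was Serpina6, the corticosteroid-binding globulin, at 2.27 ± 0.75. The list held 7.56% ± 0.56 of the summed signal.

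Apolipoproteins and lipoprotein assembly had 7 of 20 genes among the 100 brightest and 13 among the 500 brightest. Besides Apoe these included Apoc1 (9.11 ± 0.35), Apoc3 (8.55 ± 0.32) and Apoc2 (8.44 ± 0.32), small exchangeable apolipoproteins that act on the clearance of triglyceride-rich particles. Apoa2 and Apoa1, the main proteins of high-density lipoprotein, stood at 8.24 ± 0.25 and 7.78 ± 0.41. Apob, the structural protein of very-low-density lipoprotein, ranked 170 at 7.03 ± 0.48. Lipc, hepatic lipase, was the dimmest at 2.22 ± 0.30.

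Acute phase proteins were spread widely. Only Hp, Saa4 and Serpina3n were among the 100 brightest of the 12 genes above background, and the next was Orm1, at rank 566. Saa4, the constitutive serum amyloid A, stood at 8.69 ± 0.41 and Serpina3n, a protease inhibitor, at 8.42 ± 0.25. Orm1, which encodes alpha-1-acid glycoprotein, varied more, from 3.30 to 6.58, with a mean of 5.15 ± 1.04. Crp, C-reactive protein, was the dimmest of the list at 0.97 ± 0.55.

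Of the coagulation factors, 5 of 20 were among the 100 brightest. These were Fgb (9.03 ± 0.28) and Fgg (7.53 ± 0.60), chains of fibrinogen, F2 (8.31 ± 0.18), which encodes prothrombin, Serpinc1 (8.12 ± 0.29), its inhibitor antithrombin, and Plg (7.88 ± 0.34), which encodes plasminogen. Pros1, the anticoagulant protein S, was the dimmest at -0.67 ± 0.51. Of the complement genes, 3 of 20 were among the 100 brightest and 11 among the 500 brightest. C3, the central component, stood at 8.82 ± 0.27, C4a at 8.11 ± 0.46 and Cfi, a protease that degrades activated C3, at 7.67 ± 0.15.

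All 6 alpha-2u globulin genes measured under the symbols of the list were above background, 3 of them among the 100 brightest and 6 among the 500 brightest. Obp3 ranked 4, with 8.58 in the lowest rat (Ch 3), 9.29 at the median and 9.89 in the highest (Ch 4), and its probe lies at chr5:78088876-78088935 of rn4 on the minus strand. Mup4l4 stood at 8.39 ± 0.42, Mup5 at 8.23 ± 0.44 and Mup4 at 5.70 ± 0.41. By description, a selection made after the values were seen, 18 probes belonged to alpha-2u globulins or urinary proteins, and all 18 were above background on all 8 arrays. Genes of these descriptions held 6 places among the 100 brightest, with Rup2 (rank 7), LOC100912610 (rank 31) and Mup4l1 (rank 46) among the genes on no list. Rup2 and Mup4l4 held their places through 1 of 2 probes each. The probes of Rup2 had levels of 9.10 and -0.68, and those of Mup4l4 had 8.39 and 2.83. Of the 18 probes 8 shared a run of at least 20 bases with another, the longest of 51 bases, so their signals cannot be assigned to single genes.

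Other transcripts with a known sex bias in rat liver were set beside these. Of the male-biased cytochromes P450, Cyp3a2 stood at 8.23 ± 0.41, Cyp2c13 at 7.36 ± 0.39, Cyp2c11 at 6.65 ± 0.50, Cyp3a18 at 5.38 ± 1.15 and Cyp2a2 at 4.77 ± 0.22. The female-biased Cyp2c12 was above background on 6 of 8 arrays, with a mean of -1.11. Sult2a6, a sulfotransferase also listed as female-biased, was above background in all 8 rats at 5.06 ± 0.36.

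Translation genes were fewer among the very brightest. From rank 101 to rank 200 they held 25 of the 100 places, against 21 for metabolic enzymes and 12 for plasma proteins, and from rank 101 to rank 500 they held 67 against 95 and 33. Of the 99 cytosolic ribosomal protein genes above background, 15 were among the 100 brightest and 79 among the 500 brightest, and their median level was 6.60, against 0.22 for all 9966 genes. The list held 10.5% ± 0.66 of the summed signal, the largest share of the 28 function lists. Rpl41 (8.98 ± 0.26), Rplp0 (8.80 ± 0.38), Rps12 (8.30 ± 0.25) and Rplp2 (8.26 ± 0.40) were the brightest, and Rpl15 the dimmest at -1.55 ± 0.27. On the list of translation factors, Eef1a1, which delivers aminoacyl-tRNA to the ribosome, stood at 7.77 ± 0.15. Tpt1, counted on that list, is by name a translationally controlled protein and not a factor. It stood at 8.06 ± 0.15 by its brightest probe, with its other probes at 4.63 and 5.66. Endoplasmic reticulum entry and folding is the machinery that secreted proteins pass through. It had 0 of 32 genes among the 100 brightest and 2 among the 500 brightest. Hspa5, the chaperone BiP, was the brightest of them at 6.05 ± 0.28. The list was not dim beside all genes, with a median level of 3.49 against 0.22. Of its genes 34.4% were among the 996 brightest, against 9.99% of all 9966 genes.

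**Figure D3:**
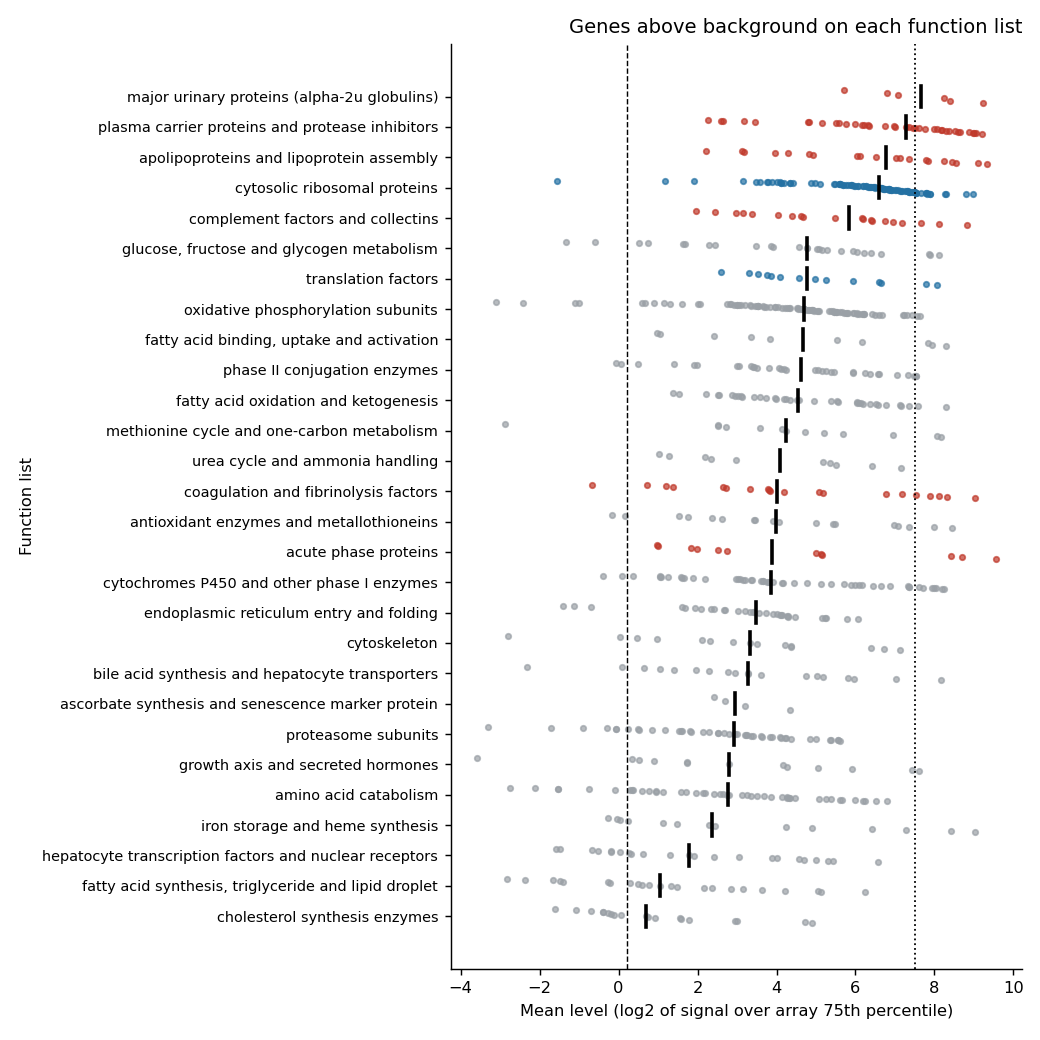
Mean level of every gene above background on each of the 28 function lists (points, x axis, log2 of signal over the 75th percentile of the array), with the median of each list as a black bar. Red marks plasma protein lists and blue translation lists, the dotted line is the level at rank 100 (7.50) and the dashed line the median of all genes (0.22). Medians run from 0.68 for cholesterol synthesis to 7.65 for the major urinary proteins.

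Among the enzyme lists, phase I enzymes, which convert foreign compounds, had the most genes among the 100 brightest. Of 50 cytochromes P450 and other phase I enzymes above background, 7 were among the 100 brightest and 18 among the 500 brightest. Besides Cyp3a2 they included Adh1c, an alcohol dehydrogenase, at 8.20 ± 0.47. Cyp2d5 and Cyp2d1, adjacent genes on 1 chromosome, stood at 8.04 ± 0.43 and 7.98 ± 0.43. The probes of Cyp2d5 and Cyp2d1 shared a run of 55 bases, so their signals cannot be assigned to single genes, although both are counted among the 7. Cyp2e1, which oxidises ethanol and other small molecules, was among the 5 most variable of the 100. It was lowest in Ch 4 at 6.32, lay between 7.65 and 8.39 in the other 7 rats and had a mean of 7.70 ± 0.60. Of the 34 conjugating enzymes 2 were among the 100 brightest, the glutathione transferases Gsta5 (7.54 ± 0.43) and Gsta1 (7.54 ± 0.19).

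Fatty acid handling was represented among the 100 brightest genes by binding, activation and oxidation. Fabp1, the liver fatty acid binding protein, stood at 8.30 ± 0.12 and had the smallest SD of the 100 brightest genes on this scale, but 0.34 after quantile normalization. Acsl1 and Slc27a2, which activate long-chain and very-long-chain fatty acids, stood at 7.93 ± 0.19 and 7.84 ± 0.15. Of the 38 fatty acid oxidation genes 2 were among the 100 brightest, Scp2 (8.28 ± 0.27) and Acaa1a (7.58 ± 0.20), both of peroxisomal oxidation, and 16 were among the 500 brightest. Fatty acid synthesis and lipid droplet genes had 0 of 23 among the 100 brightest and 1 among the 500 brightest. This was Plin2, a coat protein of lipid droplets, at 6.25 ± 0.45. Of the 23 genes 17.4% were among the 996 brightest, against 9.99% of all genes. Acaca, the acetyl-CoA carboxylase of fatty acid synthesis, was the dimmest at -2.82 ± 0.76.

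Cholesterol synthesis was the only function list besides ascorbate synthesis with no gene among the 500 brightest. Of its 19 genes above background the brightest was Ebp, a sterol isomerase, at rank 654. Ebp had 4.47 in the lowest rat, 4.68 at the median and 5.55 in the highest. Hmgcs1, which makes the precursor of mevalonate, stood at 4.73 ± 0.25, Fdft1, squalene synthase, at 3.01 ± 0.17, and Mvk, mevalonate kinase, was the dimmest at -1.62 ± 0.30. The list held 0.0930% ± 0.00775 of the summed signal. Bile acid synthesis and transport had 1 of 19 genes among the 100 brightest, Slc27a5, which activates bile acids before conjugation, at 8.17 ± 0.42. Baat, which joins them to amino acids, stood at 7.02 ± 0.32.

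Other pathways of the hepatocyte were spread over the ranks. Bhmt and Mat1a of the methionine cycle stood at 8.16 ± 0.49 and 8.07 ± 0.37. Ldha, lactate dehydrogenase, and Fbp1, of gluconeogenesis, stood at 7.89 ± 0.39 and 7.86 ± 0.33. Ftl1 and Fth1, the ferritin chains that store iron, stood at 9.02 ± 0.50 and 8.42 ± 0.20, and Mt1, a metallothionein that binds zinc and copper, at 8.44 ± 0.31. The probe of Ftl1 shared a run of 53 bases with that of LOC100360087 (rank 18), so their signals cannot be assigned to single genes. Of the urea cycle 0 of 10 genes were among the 100 brightest and 3 among the 500 brightest, with Arg1, arginase, first at 7.16 ± 0.31. Cps1, the entry enzyme of the cycle and among the most abundant mitochondrial proteins of the liver, ranked 3569. Its only probe lay between -0.60 (Ch 4) and 2.55 (Ch 8), with a median of 1.40 and a mean of 1.27 ± 1.00. Amino acid catabolism had 0 of 46 among the 100 brightest and 7 among the 500 brightest.

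Of the 93 oxidative phosphorylation genes encoded in the nucleus, 2 were among the 100 brightest, Atp5me (7.62 ± 0.52) and Cox6a1 (7.55 ± 0.27), and 31 among the 500 brightest. The 13 probes on the mitochondrial genome, grouped after the values were seen, were all above background on all 8 arrays and lie outside the gene ranking since the files give them no symbol. The brightest was in the gene of cytochrome b, at chrM:15184-15243 of rn4 on the plus strand, with a level of 8.36 ± 0.30. It is shown because it is the brightest probe of a mitochondrial transcript.
cytochrome b: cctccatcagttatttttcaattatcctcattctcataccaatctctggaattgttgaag

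Hepatocyte transcription factors and nuclear receptors had 0 of 23 genes among the 100 brightest. Of the 23 genes 26.1% were among the 996 brightest, against 9.99% of all genes. Creb3l3, a membrane-bound factor of the liver, was the brightest at 6.57 ± 0.12, and Nr0b2, a receptor that represses bile acid synthesis, stood at 5.43 ± 0.67. Hnf4a, a factor that defines hepatocytes, stood at -1.48 ± 0.16 and lay between -1.74 and -1.30 in the 8 rats.

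The tissue label was set against markers. All 16 hepatocyte markers were above background and 11 were among the 100 brightest. Their median level was 8.17, but the dimmest of them, Hnf4a, stood at -1.48. Markers of other cells of the liver had lower medians, such as 1.61 for macrophages, 0.92 for stellate cells and 0.25 for endothelium. Of these markers 0 were among the 500 brightest, although some stood above the dimmest hepatocyte marker. Among them were C1qb of macrophages (4.99 ± 0.41), Kdr of endothelium (4.72 ± 0.37) and Clec4f of Kupffer cells (4.47 ± 0.37). Over all genes with a symbol, 49.8% were above background on all 8 arrays. Above background were 12 of 14 macrophage markers, 8 of 10 endothelial, 9 of 12 stellate, 3 of 10 cholangiocyte, 5 of 11 T and natural killer cell, 2 of 7 neutrophil and 0 of 5 B cell markers. Of other tissues, 4 of 9 muscle markers, 1 of 5 adipocyte, 1 of 10 pancreas, 1 of 5 intestine, 0 of 6 kidney and 0 of 10 lung and brain markers were. The brightest of these were Cfd of adipocytes (2.33 ± 0.38) and Actc1 of muscle (1.58 ± 0.30). Some of these counts rested on Ch 4. Without it the share over all genes was 53.4%, and the counts were 10 of 10 endothelial, 10 of 12 stellate, 4 of 10 cholangiocyte, 6 of 11 T and natural killer cell, 1 of 5 B cell, 2 of 10 pancreas, 1 of 6 kidney and 1 of 10 lung and brain markers, with the other lists as before. Red cell markers were an exception, with 7 of 8 above background. Hba-a1 ranked 57, with 7.50 in the lowest rat, 8.04 at the median and 8.94 in the highest (Ch 4), and Hbb ranked 129 at 7.30 ± 0.41. The red cell list held 0.327% to 0.766% of the summed signal, and its part in the other results was not tested. In whole tissue, fewer cells of a type and less RNA per cell cannot be told apart.

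Many of the brightest probes belonged to no named gene. Of the 100 brightest probes, 28 had no symbol, against 18.4% of all 14106 probes above background. Of the 28, 6 formed a family with both probes of Rn18s, linked by shared runs of at least 12 bases, and the levels of these 8 probes ran from 8.32 to 9.64. The brightest probe of all, at 9.64 ± 0.60, was of this family. A further 2 of the 28 shared runs of 39 and 41 bases with the probe of Ftl1, and 6 of the 28 had a GC content above 70%. Over the 100 brightest probes, named or not, the share above 70% was 6%, against 0.844% of all probes above background. The Rn18s probe and an unnamed probe at 9.31 ± 0.57 are shown because they share the run of 36 bases in capitals, reading in the same direction. They lie on unplaced sequence of rn4, at chrUn:485339-485398 on the plus strand and chrUn:58684206-58684265 on the minus strand.
Rn18s: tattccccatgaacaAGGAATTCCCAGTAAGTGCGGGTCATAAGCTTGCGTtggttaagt
probe without a symbol: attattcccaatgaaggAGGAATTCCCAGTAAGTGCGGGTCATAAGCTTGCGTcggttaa

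Twnk, which encodes the mitochondrial DNA helicase, ranked 56 at 8.03 ± 0.50 through 1 of its 2 probes. The other probe had a level of 0.58. The bright probe, at chr1:250079111-250079170 of rn4 on the plus strand, shared a run of 22 bases with an unnamed probe on chromosome 11 at 9.10 ± 0.51. That run reads like part of the identifier (ID) element, a short interspersed repeat common in rat transcripts, and the 9 letters in capitals are TTTAGCTCA. These letters, or their reverse complement, were in 10 of the 30367 probes (0.0329%) and in 2 of the 100 brightest, and the search was made after the values were seen.
run shared by both probes: ttggggaTTTAGCTCAgtggta

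Different probes of the same gene often lay far apart. Of the 100 brightest genes 33 had several probes, and in 32 at least 2 were above background on all 8 arrays. The median distance between their brightest and dimmest probe was 2.51 on the log2 scale, against 1.72 over the 1388 genes with several such probes. The 100 genes were chosen by their brightest probe, so a larger distance among them is partly built in. The distance was under 1 in 7 of the 32 and above 3 in 14. The 3 probes under the symbol Mup5 lay between 8.13 and 8.23, but the one at 8.13 is described as alpha-2u globulin PGCL5. That probe shares a run of 51 bases with a probe of another urinary protein gene. The pair of Fth1, which share a run of 28 bases, lay at 8.33 and 8.42. By contrast, the probes of Fgb had levels of 9.03 and 0.61, those of Plg 7.88 and -1.29, and those of Ahsg, the plasma protein fetuin-A, 8.29 and 3.67. The second probe of Serpinc1 was above background on 0 of 8 arrays. With the mean over all probes of a gene in place of the brightest, 77 of the 100 genes remained among the 100 brightest.

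The variation between rats was small beside the range between genes. The median SD over the 8 rats was 0.30 for the 100 brightest genes and 0.34 for all genes. The 5 smallest SDs of the 100 were those of Fabp1 (0.12), Chchd10 (0.13), Rpl21 (0.14), Eef1a1 (0.15) and Rpl37a (0.15). The 5 largest were those of Fgg (0.60), Cyp2e1 (0.60), Apoh (0.57), Rn18s (0.55) and Atp5me (0.52). Fgg was lowest in Ch 4 (6.52) and Ch 7 (6.69) and lay between 7.59 and 8.23 in the other 6 rats.

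The overall signal of the arrays was set beside these values. A level has the 75th percentile of its array subtracted, so a lower level on an array with a higher percentile is partly built in. The median level of the 100 brightest genes, from 7.84 in Ch 3 to 8.40 in Ch 4, is therefore given without its test result. The share of summed signal in these genes, which the scaling does not change, was lower on arrays with a higher percentile (Pearson's r = -0.93, exact permutation p = 0.0015, adjusted 0.0015, Spearman's rho = -0.88, exact permutation p = 0.0072, adjusted 0.0072, n = 8). The number of probes above background was higher on such arrays (r = 0.96, exact permutation p = 0.00035, adjusted 0.00071, rho = 0.90, exact permutation p = 0.0046, adjusted 0.0068, n = 8). The share and the number of probes come from the same intensities as the percentile, so these relations may be partly built in too. The 100 genes were also chosen on these 8 arrays. No conclusion is therefore drawn from these p-values. The p-values were adjusted by the Benjamini-Hochberg method over 3 relations, that of the median level included, and the tests were two-sided. Without Ch 4 and Ch 5, the rats farthest from the median, r was -0.92 and 0.92. After quantile normalization, which gives every array the same distribution, the median SD of the 100 was 0.21, and the SD was smaller for 69 of the 100 genes and larger for 31. The order of the SDs depended on this choice. The SD of Rn18s became the smallest of the 100, at 0.033, which that method forces on genes at the very top, and that of Fabp1 became 0.34. Fgg, Cyp2e1 and Apoh kept large SDs, of 0.74, 0.67 and 0.65. The part of the array signal in the differences between rats was not tested further.

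**Figure D4:**
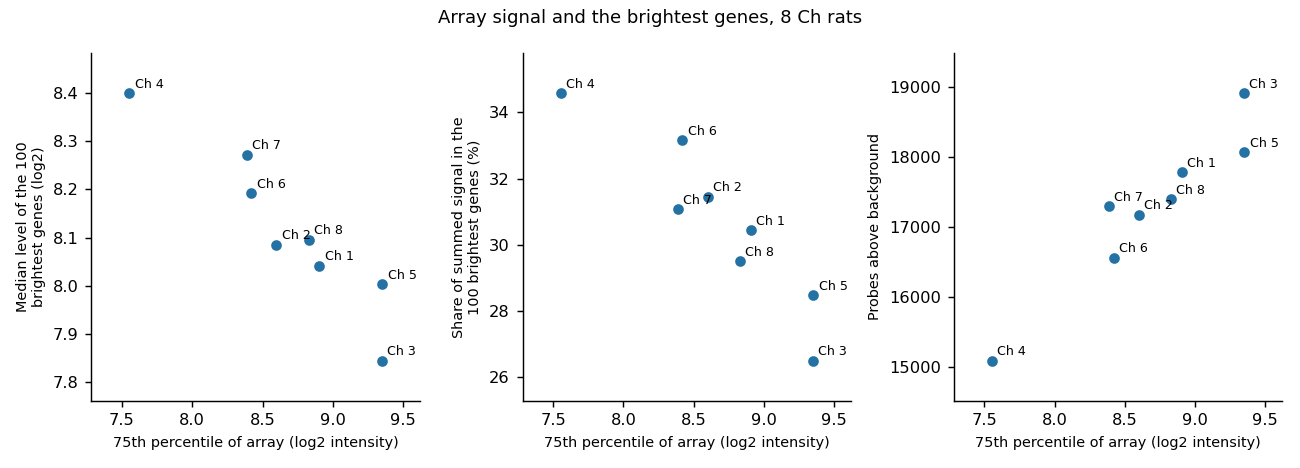
Median level of the 100 brightest genes, their share of the summed signal and the number of probes above background (y axes) against the 75th percentile of each array (x axis, log2 intensity), 1 point for each of the 8 Ch rats. The percentile is subtracted in the level, so the slope of the first panel is partly built in. The other panels come from the same intensities as the percentile, so their slopes may be partly built in as well. Ch 4, with the lowest percentile, has the highest median level (8.40), the highest share (34.6%) and the fewest probes above background (15088).

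The ranking was then read in rats it did not use. Of the 100 brightest genes in Ch, 87 were among the 100 brightest in ChGENE and 88 in ChHAYW, and all 100 were among the 200 brightest in each. The gene that ranked lowest was Gsta5 in ChGENE, at rank 195. Of the 30 brightest, 25 were among the 30 brightest in each of these diets. Hp ranked 1 in ChGENE and 2 in ChHAYW, and Obp3 ranked 26 and 1. These are descriptions of rank, and no difference between diets was tested.

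Features that the ranking did not use were also described for the brightest genes. By RefSeq (GRCr8), 95 of the 100 matched a protein-coding gene, with a median span of 6.75 kb, against 20.9 kb for 9301 of the genes above background. Adjacent genes on the chromosome formed 6 pairs, among them Apoc1 with Apoe, and Apoa1 with Apoc3. Adjacent pairs were not counted over all genes above background, so this count is not read as an excess. A promoter of 250 bases before and 50 after the start was found for 77 of the 100 genes and for 7757 of the genes above background. TATA between bases 40 and 18 before the start was in 18 of 77 (23.4%), against 3.61% of the 7757 and 5.01% of all 27457 promoters. TATAAA anywhere in the promoter, on either strand, was in 27.3% of the 77, 8.15% of the 7757 and 14.3% of all promoters. GTTAAT, part of the sequence bound by HNF1, was in 10 of the 77, 4.69% of the 7757 and 7.37% of all promoters on either strand. GGGCGG, the core of the SP1 site, was in 33.8%, 60.5% and 34.9%, and CCAAT in 45.5%, 38.6% and 37.7%. The 31 plasma protein genes among the 77 held GGGCGG in 19.4%, and the 13 ribosomal protein genes in 61.5%. Genes of 1 family share promoter sequence, a letter match is no evidence of binding, and no test was made.

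The last 59 bases before the start are shown for a urinary protein gene, a fibrinogen chain, a metallothionein and the liver fatty acid binding protein, as examples with the TATA match, which is in capitals. On GRCr8 these lie at chr5:79640676-79640734 (minus strand), chr2:170700876-170700934 (minus), chr19:10832976-10833034 (minus) and chr4:104749281-104749339 (plus), in the same order.
Obp3: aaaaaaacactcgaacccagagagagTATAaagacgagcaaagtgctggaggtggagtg
Fgb: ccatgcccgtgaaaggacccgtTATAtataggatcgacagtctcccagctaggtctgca
Mt1: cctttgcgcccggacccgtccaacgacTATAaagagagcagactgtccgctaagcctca
Fabp1: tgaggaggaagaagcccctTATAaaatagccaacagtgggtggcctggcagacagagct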

How the data were processed

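Total RNA of whole liver (RNA integrity number of at least 9.2 per the labels) was labelled with Cy3 and hybridised to 1-colour Agilent rat arrays. The labels and the methods of the study name different labelling kits. The authors extracted the deposited intensities with Agilent Feature Extraction 10.10.1.1, which corrects the background and trends within an array but does not scale between arrays. The deposited value table held the same intensities, with 0 spots that differed.

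Outlier spots, by the non-uniformity and population flags of the software, were dropped. The log2 intensities of the other spots of a probe were averaged, and the 75th percentile over the 30367 probes was subtracted. Where every spot of a probe carried such a flag, which applied to 14 values on the 8 Ch arrays, its spots were used. A probe was taken as above background on an array when no less than 50% of its spots had the flag for a signal well above background. Symbols came from RefSeq (GRCr8) by accession for 18643 probes and by another accession for 801, and from the files for 4873, with 6050 probes left unnamed. A gene was represented by the brightest of its probes above background. The number of arrays limits the precision. No 2 arrays held identical values.

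The members and the 42 gene lists (28 of functions, 14 of markers) were chosen with earlier results of these data known. Genes named are the 30 brightest with a symbol other than LOC or RGD, up to 4 brightest members of each list and the dimmest of each function list, the 5 largest and 5 smallest SDs of the 100 brightest, 5 genes on either side of rank 100 and the sex-biased genes. Other names were chosen after their values were seen. Some genes that this rule selects are not reported here. Correlations across rats were tested over all 40320 pairings. Protein length was not analysed here. The ranking steps were tested on simulated data. Alternatives used normexp in limma 3.58.1 (offset 50), quantile normalization, other filters and summaries, and each rat left out. Python 3.11.15, numpy 2.4.6, pandas 2.3.3, scipy 1.17.1 and R 4.3.3 were used.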

Additional observations from a re-analysis of the deposited data

Results flagged for a closer look

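In 209 sets of 8 values (205 named genes and 4 measures of the arrays), 15 had a highest or lowest rat whose gap to the nearest other rat was a large share of the whole range. Chance alone marks about 1 in 20 such sets. Of the 15, 10 were marked for Ch 4, the dimmest array. Its levels were the lowest for Bhmt (6.99, with the next rat at 8.18), Cyp2e1 (6.32, next 7.65), Serpina3c (6.42, next 7.40), Hsd17b13 (4.47, next 5.01), Cd14 (1.63, next 2.97), Msmo1 (2.48, next 2.93) and Lipc (1.60, next 2.10). Its levels were the highest for Eef1b2 (7.19, next 6.69), Cd3d (0.048, next -0.69) and Tnni2 (-0.89, next -1.62). The part of the array's low signal in these values was not tested.

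Of the other 5, F2 was lowest in Ch 3 (7.91, next 8.25), Plin2 was lowest in Ch 7 (5.31, next 6.19), Fabp1 was highest in Ch 5 (8.54, next 8.33), LOC686074 was highest in Ch 6 (7.87, next 7.57) and Epcam, a marker of cholangiocytes, was highest in Ch 3 (1.61, next -0.58).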

How the results depend on the processing

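The counts of plasma protein, metabolic enzyme and translation genes among the 100 brightest stayed within 1.5 times their value under each alternative run. Of the 28 single lists, 6 did not under at least 1 alternative: with the mean over probes coagulation had 3 genes, oxidative phosphorylation 4, and fatty acid oxidation and translation factors 1 each. Oxidative phosphorylation had 0 with the median over rats and 1 without Ch 4 or without Ch 7. Phase II enzymes had 0 without Ch 2 and 1 without Ch 6, hormones had 0 with the median and 2 without Ch 4, and fatty acid oxidation had 1 with normexp. With no detection filter the counts of probes and genes became 30367 and 20020 by construction, and 100 of the 100 genes remained among the 100 brightest. With each rat left out in turn, 14110 to 15149 probes and 9968 to 10693 genes were above background, the 100 brightest genes held 30.1% to 31.2% of the signal, and 96 to 99 of the 100 genes remained. Plasma protein genes then numbered 36 to 38, metabolic enzymes 24 to 27 and translation genes 15 to 20, 86 to 88 genes were shared with ChGENE and 86 to 89 with ChHAYW, and 23.1% to 24.7% of promoters had TATA. The choice of probe mattered most: with the mean over probes, 77 genes remained and translation genes numbered 13. With normexp 96 genes remained, with the median over rats 96 and with quantile normalization 99. The percentile over probes above background lowered every level by the same amount of 2.42 and changed no order, and normexp moved 60 of 205 named levels by more than their SD. Dim genes are limited by signal over background, above all in Ch 4. No paired analysis was possible because no result comes from a test between groups, and same-numbered rats of different diets are different animals.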
